A study of Macaca mulatta with 449 samples.

Results

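The amygdala (AMY) was compared with the adjoining entorhinal and perirhinal cortex (PA) of the rhesus macaque, using the 16 RNA samples that carry region number 44 or 28 in the labels, out of 449 samples in the whole series. The series is an atlas of the macaque brain in which ribosome-depleted RNA was sequenced from 51 sub-regions of the count table in 8 animals. Each animal gave 1 AMY and 1 PA sample, so every difference below was taken within animals. The animals, called here by the numbers in their labels (2, 3, 4, 6, 7, 8, 10 and 11), carried no genetic change or treatment that the labels name. Animals 4, 7, 8 and 10 were young (3.2 to 5 years) and animals 2, 3, 6 and 11 mid-aged (9.8 to 10 years). Animals 4, 6, 10 and 11 were female and animals 2, 3, 7 and 8 male. Blocks of tissue were cut by hand, so each sample holds all cell types of its block, and AMY is 1 block that was not divided into nuclei. Likewise, PA joins 2 cortical areas in 1 block.

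The amygdala is a group of nuclei in the medial temporal lobe known for its part in fear, reward and social behavior. Its basal and lateral nuclei hold glutamatergic neurons of pallial origin that resemble cortical neurons without being arranged in layers, whereas its central and medial nuclei hold many GABAergic neurons of subpallial origin. The entorhinal and perirhinal cortices are layered, send the main cortical input to the hippocampus, and exchange dense projections with the amygdala.

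The 16 libraries held 8667179 to 13436456 counts each, with 8761421 to 12259346 in AMY and 8667179 to 13436456 in PA. Levels below are in CPM, counts scaled to a common library size by TMM, and are not corrected for gene length, so they were compared between samples and not between genes. The AMY libraries of animals 3, 8 and 10 correlated less with the other AMY libraries (median *r* = 0.947, 0.956 and 0.968) than the remaining AMY libraries did (0.981 to 0.982). Leaving out these 3 animals gave 185 genes higher in AMY and 272 higher in PA, against 178 and 288 with all 8. The summed level of meningeal fibroblast markers differed widely among the PA libraries, and is given below with the genes whose paired difference varied most among animals.

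Of 14591 genes tested, 466 (3.19%) were called, that is, differed at a false discovery rate (FDR) under 0.05 and more than 2-fold (absolute log2 fold change above 1). These were 178 genes higher in AMY (1.22%) and 288 higher in PA (1.97%). At the FDR alone, 2162 genes (14.8%) differed, 1028 in favor of AMY (7.05%) and 1134 in favor of PA (7.77%). Of the 178 genes, 149 were higher in AMY in 8 of 8 animals, and of the 288 genes, 224 were higher in PA in 8 of 8. Over all genes tested, 5.71% were higher in AMY and 5.98% higher in PA in every animal. The share of all genes without overlap between the tissues was not counted, so statements of overlap below only describe the genes named. Differences beyond 4-fold were found for 19 genes in AMY and 63 in PA. In bulk tissue, fewer cells of a type and less RNA per cell cannot be told apart.

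**Figure D1:**
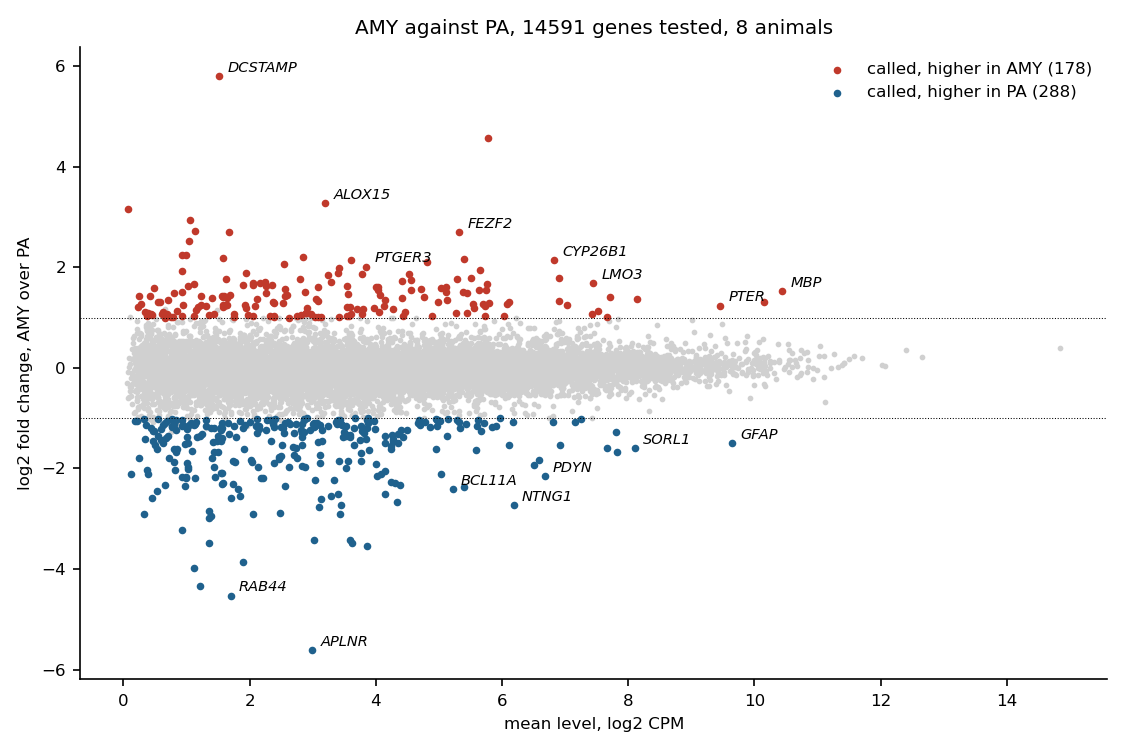
Log2 fold change of AMY over PA (vertical axis) against mean level in log2 CPM (horizontal axis) for the 14591 genes tested in 8 animals. The 178 genes called higher in AMY are red, the 288 called higher in PA are blue, other genes are grey, and dotted lines mark a 2-fold difference; *DCSTAMP* and *APLNR* lie at the extremes, at 5.81 and -5.62.

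*DCSTAMP* and *PTGER3* were named with the comparison as markers of AMY. *DCSTAMP* encodes a transmembrane protein known for the fusion of osteoclasts and dendritic cells. It was at 3.23 to 8.45 CPM in AMY (median 5.48) and at 0 to 0.294 CPM in PA (median 0.0376). Every AMY library lay above every PA library, and the highest count in PA was 4 against 91 in AMY. The log2 fold change was 5.81 ± 0.36 (SE, FDR = 1.58e-06). The next sub-region after AMY, the temporal polar gyrus, reached a mean of 0.463 CPM, so AMY was first of 51 and no other sub-region passed that value. *PTGER3*, the EP3 receptor of prostaglandin E2, was at 8.38 to 33.3 CPM in AMY (median 24.01) and at 3.21 to 11.6 CPM in PA (median 4.52). The ranges overlapped, but AMY was higher in each of the 8 animals, with a log2 fold change of 2.02 ± 0.23 (FDR = 0.000113). AMY was again first of 51 sub-regions for this gene. PA ranked 4th, and both tissues lay above the sum of the 31 neocortical sub-regions, AMY by 4.08 and PA by 2.07 on the log2 scale. Against the same neocortical sum, *DCSTAMP* was higher in AMY (5.26) and not called in PA (-0.67, FDR = 0.315).

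The 12 largest differences in favor of AMY that held in 8 of 8 animals (mean of at least 1 CPM) included those of the transcriptional regulators *FEZF2*, *ZFPM2* and *DACH1*. *FEZF2*, known for the specification of deep-layer subcortical projection neurons, was at 45.9 to 95.7 CPM in AMY (median 71.4) and at 5.74 to 25.6 CPM in PA (median 10.1). The groups did not overlap, and the log2 fold change was 2.71 ± 0.17 (FDR = 1.58e-06). AMY was first of the 51 sub-regions for *FEZF2*, followed by CA1 of the hippocampus at 57.2 CPM, while the neocortical sub-regions lay between 6.03 and 26.6 CPM. *ZFPM2*, a cofactor of GATA factors found in corticothalamic neurons, was at 42.9 to 80.6 CPM in AMY and 11.2 to 22.02 CPM in PA (log2 fold change 2.16 ± 0.12, FDR = 1.04e-06). Again no library of one tissue fell within the range of the other. *DACH1*, a nuclear factor of retinal and neural development, differed by 1.98 ± 0.31 on the log2 scale (FDR = 0.00124) with overlapping ranges. A smaller difference was that of *BHLHE22*, a basic helix-loop-helix factor of cortical neurons, at 1.04 ± 0.17 (FDR = 0.00145), close to the 2-fold limit, and its call was lost when animal 3, 6 or 11 was left out (lowest value 0.94).

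The list of genes known from amygdala nuclei had 13 members tested. Of these, 4 were called higher in AMY (*CYP26B1*, *LMO3*, *LHX9* and *NR2F2*) and none in PA, where 1.22% and 1.97% of all genes were called. Counts of the lists below stand against these same shares. Members and lists were chosen with earlier results of these data known, so list counts and medians are a description and not a test. The median log2 fold change of the list was 0.49, against -0.01 over all genes. *CYP26B1*, the enzyme that breaks down retinoic acid, was at 117 to 253 CPM in AMY (median 187) and at 9.35 to 95.4 CPM in PA (median 45.8), without overlap. Its log2 fold change was 2.14 ± 0.31 (FDR = 0.0006). *LMO3*, a LIM-only cofactor, was at 161 to 360 CPM in AMY (median 274) and at 49.02 to 98.3 CPM in PA (median 85.2), again without overlap (log2 fold change 1.68 ± 0.16, FDR = 2.49e-05). *LMO3* stood below the neocortex in PA (-0.82) and above it in AMY (0.86). *NR2F2*, the orphan nuclear receptor COUP-TFII, was at 203 to 338 CPM in AMY and 94.4 to 174 CPM in PA. AMY and PA ranked 1st and 2nd of 51 for *NR2F2*, and the neocortical sub-regions lay between 15.97 and 62.6 CPM. The *NR2F2* difference of 1.01 ± 0.08 (FDR = 6.99e-06) sat on the 2-fold limit, and the call was lost without animal 2, 3, 6, 10 or 11 (lowest value 0.96). *LHX9* differed by 1.29 ± 0.32 (FDR = 0.0189), and its call was lost without animal 6, 10 or 11 (lowest value 0.96). *FOXP2* and *CRH*, which mark subpallial and central amygdala neurons, were not called: *FOXP2* had a log2 fold change of 0.49 ± 0.30 (FDR = 0.303) and *CRH* one of -0.68 ± 0.15 (FDR = 0.00799, under 2-fold).

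**Figure D2:**
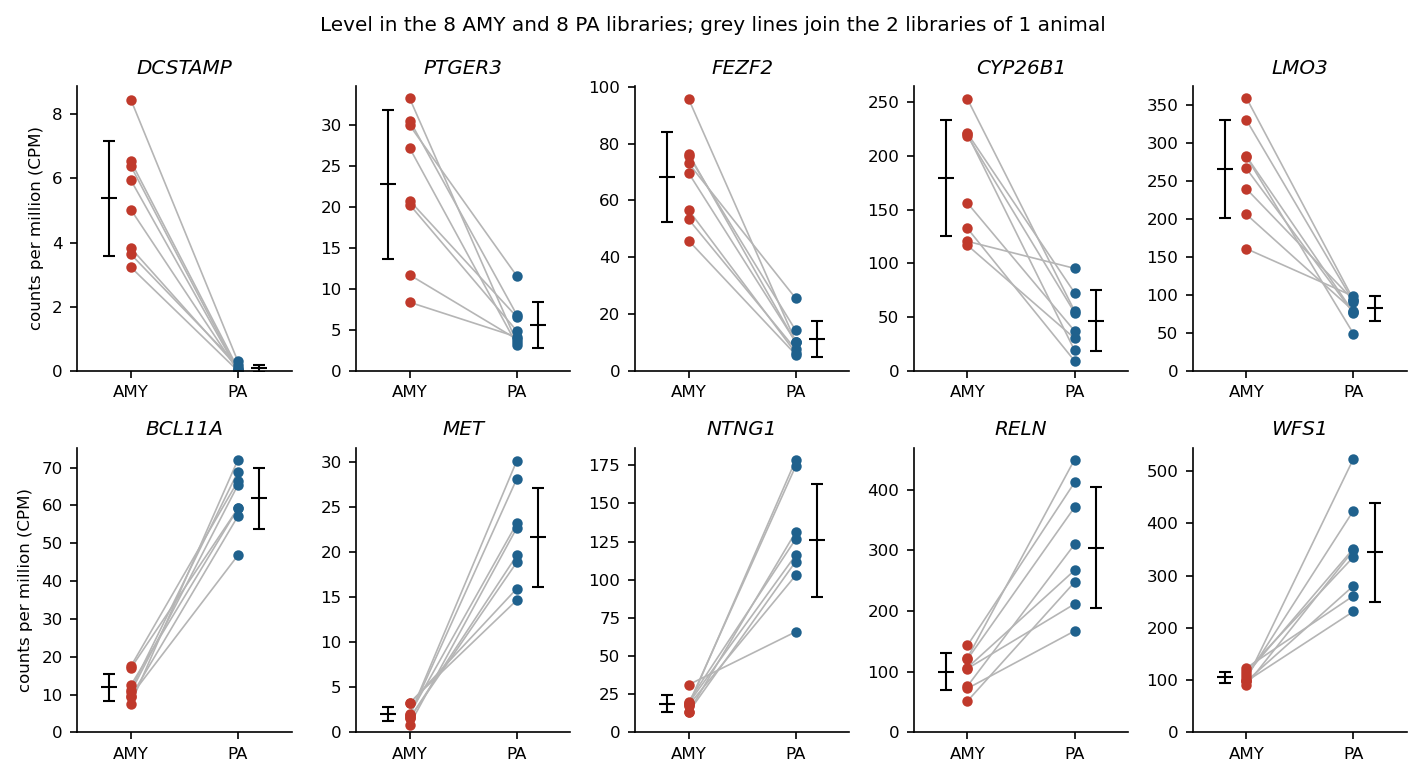
Levels in CPM (vertical axes, each starting at 0) of 10 genes in AMY (red) and PA (blue); each point is 1 library, grey lines join the libraries of 1 animal, and black bars give mean ± SD of 8. The upper row is higher in AMY, with overlap between the tissues for *PTGER3* alone, and the lower row is higher in PA without overlap.

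Other genes with large differences in favor of AMY had varied roles. *ALOX15*, a lipoxygenase of polyunsaturated fatty acids, was at 4.99 to 23.99 CPM in AMY and 0.438 to 3.04 CPM in PA (log2 fold change 3.28 ± 0.35, FDR = 7.35e-05). It lay above the neocortex in AMY (1.39) and below it in PA (-1.91), while CA3 of the hippocampus had the highest mean of all sub-regions, 55.7 CPM. *VASH2*, a tubulin carboxypeptidase, was at 12.5 to 31.5 CPM in AMY and 3.21 to 5.50 CPM in PA (2.14 ± 0.15, FDR = 2.80e-06). Neither gene overlapped between the tissues. *Srpx2* (as the annotation spells it), *NPPA* and *SLC47A2* were low, with AMY means of 3.47, 5.44 and 3.11 CPM, and their ranges overlapped with PA. *FSHB*, the beta subunit of follicle-stimulating hormone, was at 22.7 to 80.7 CPM in AMY and 4.25 to 21.99 CPM in PA (2.12 ± 0.25, FDR = 0.000154). AMY ranked 2nd of 51 after the pituitary (261 CPM) for this gene. Reads of a neighboring or antisense transcript could not be told apart from those of *FSHB*. The gene ENSMMUG00000016673, which has no symbol in the tables used, had the second largest difference in favor of AMY (4.57 ± 0.34, FDR = 4.81e-06). It ranged from 14.9 to 338 CPM in AMY and from 0.382 to 11.0 CPM in PA, and was highest in the corpus callosum (735 CPM).

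Several genes known from cortical projection neurons were higher in PA. *MET*, the receptor of hepatocyte growth factor, was at 14.7 to 30.1 CPM in PA (median 21.1) and at 0.870 to 3.29 CPM in AMY (median 1.88), a log2 fold change of -3.42 ± 0.24 (FDR = 3.43e-06). It was below the neocortex in both, by -1.62 in PA and -5.07 in AMY. *BCL11A*, a zinc-finger factor of cortical projection neurons, was at 46.8 to 72.1 CPM in PA and 7.64 to 17.5 CPM in AMY (-2.41 ± 0.14, FDR = 1.04e-06). Against the neocortex, *BCL11A* was not called in PA (-0.09, FDR = 0.5) and was lower in AMY (-2.50). Neither gene overlapped between AMY and PA. *NR4A2* (-1.50 ± 0.13) and the upper-layer gene *CUX2* (-1.10 ± 0.20) were also higher in PA, and the call of *CUX2* was lost without animal 3 (-0.96). Of the 26 pallial transcription factors tested, 4 were called higher in PA (1.97% of all genes) and 2 in AMY (*FEZF2* and *BHLHE22*, 1.22% of all genes), and 20 were not called. *TBR1*, a general factor of glutamatergic cortical neurons, differed by -0.11 ± 0.15 (FDR = 0.663).

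The list of cortical layer and entorhinal genes had 25 members tested, of which 8 were called higher in PA (1.97% of all genes) and 2 higher in AMY (1.22% of all genes). *NTNG1*, a membrane-anchored netrin of axonal and synaptic adhesion, was at 65.9 to 178 CPM in PA (median 121) and at 13.3 to 31.2 CPM in AMY (median 18.1). The groups were fully separate, with a log2 fold change of -2.74 ± 0.22 (FDR = 7.59e-06). *RELN*, the secreted glycoprotein that marks layer II stellate cells of the entorhinal cortex, was at 167 to 450 CPM in PA (median 289) and at 51.7 to 143 CPM in AMY (median 106). It differed by -1.60 ± 0.13 (FDR = 7e-06), with PA above the neocortex (1.38) and AMY not called against it (-0.21, FDR = 0.157). *WFS1*, a protein of the endoplasmic reticulum that marks pyramidal cells of the entorhinal cortex and CA1, was at 232 to 524 CPM in PA and at 90.8 to 123 CPM in AMY (-1.67 ± 0.13, FDR = 5.63e-06). Neither *RELN* nor *WFS1* overlapped between the tissues. *RXFP1* (the relaxin receptor, -2.35), *PCP4* (a calmodulin regulator, -1.54) and *TRPS1* (a GATA-type repressor, -1.25) completed the group with *NR4A2* and *CUX2*. In the opposite direction, *SEMA3E*, a secreted semaphorin, was higher in AMY with *FEZF2*, by 2.08 ± 0.30 (FDR = 0.000681) in 7 of 8 animals.

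**Figure D3:**
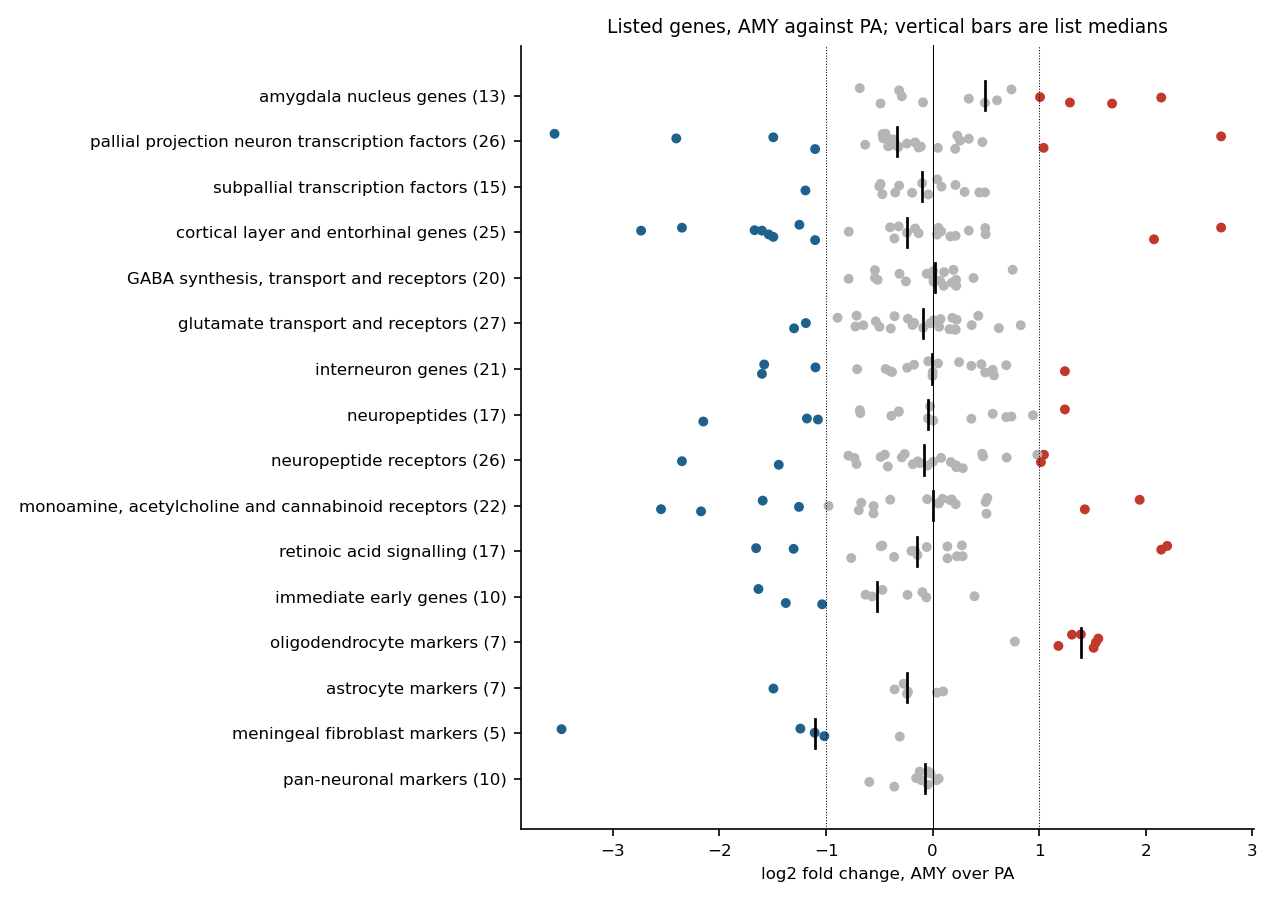
Log2 fold change of AMY over PA (horizontal axis) for the tested members of 16 gene lists, with the number tested in brackets; each point is 1 gene, red and blue mark genes called higher in AMY and in PA, grey genes were not called, black bars are list medians, and vertical positions within a list are spread at random. Oligodendrocyte markers lie furthest to the right, with a median of 1.39, and meningeal fibroblast markers furthest to the left, with a median of -1.11.

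The remaining genes with the largest differences in favor of PA were mostly low in AMY. *APLNR*, the apelin receptor, was at 3.01 to 45.7 CPM in PA (median 8.80) and at 0 to 0.598 CPM in AMY (median 0.307), the largest difference in favor of PA (-5.62 ± 0.40, FDR = 3.43e-06). AMY was last of 51 sub-regions for *APLNR*, and PA was 2nd. *RAB44*, a large GTPase of the Rab family, was at 3.76 to 11.5 CPM in PA and 0.0840 to 0.594 CPM in AMY (-4.53 ± 0.33, FDR = 4.04e-06). *SFN* (14-3-3 sigma, -4.34), *TRIM72* (-3.98), *PKHD1* (-3.43) and *FNDC11* (-3.21) were also low in AMY, with means of 0.187, 0.229, 1.31 and 0.332 CPM. *FMOD* (fibromodulin, -3.86), *DMP1* (an acidic matrix phosphoprotein, -2.98) and *BMP3* (a bone morphogenetic protein, -2.95) encode proteins of the extracellular space, and PA was first of 51 for all 3. PA was first for *RAB44* as well. No PA library overlapped with AMY for any of these 9 genes.

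Genes of inhibitory and excitatory transmission were counted next. Of the 20 tested genes of GABA synthesis, transport and reception, none were called in either direction (3.19% of all genes were). At the FDR alone, 2 were higher in AMY (7.05% of all genes) and 1 higher in PA (7.77% of all genes). *GAD1* was at 267 to 358 CPM in AMY and 214 to 329 CPM in PA (log2 fold change 0.20 ± 0.07, FDR = 0.0888), and *GAD2* differed by -0.06 ± 0.10 (FDR = 0.747). Of the 15 subpallial transcription factors tested, 1 was called, *ZIC1*, higher in PA (-1.19 ± 0.26, FDR = 0.00836). *ZIC1* is also made by meningeal cells, whose markers differed among the PA libraries (below). Its difference was -0.23 in animals 2, 3 and 7 and -1.10 without animals 3, 8 and 10, and the part of meningeal tissue in it was not tested. Of 27 genes of glutamate transport and reception, the metabotropic receptors *GRM8* (-1.30 ± 0.14) and *GRM4* (-1.19 ± 0.14) were called higher in PA (1.97% of all genes), and none in AMY. *SLC17A7*, the main vesicular glutamate transporter of cortex, was at 999 to 1401 CPM in AMY and 966 to 1188 CPM in PA (0.20 ± 0.07, FDR = 0.0742). *SLC17A6*, the transporter typical of subcortical neurons, was higher in AMY by 0.62 ± 0.14 (FDR = 0.00895), under the 2-fold limit.

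Neuropeptides and their receptors differed in both directions. Of 17 peptide genes tested, *NPY* was called higher in AMY and *PDYN*, *PENK* and *CCK* higher in PA, against 1.22% and 1.97% of all genes. *NPY*, an anxiolytic peptide of interneurons, was at 49.9 to 101 CPM in AMY (median 75.0) and at 21.6 to 43.04 CPM in PA (median 31.9), without overlap (1.24 ± 0.13, FDR = 6.87e-05). Its receptor *NPY2R* was also higher in AMY (1.04 ± 0.15, FDR = 0.000502), a call lost without animal 2 or 4 (lowest value 0.99). The mu opioid receptor *OPRM1* was higher in AMY by 1.02 ± 0.19 (FDR = 0.0041), and this call was lost without animal 4, 6, 7 or 11 (lowest value 0.90). The opioid precursor genes went the other way. *PDYN* was at 54.3 to 324 CPM in PA (median 158) and at 16.9 to 70.3 CPM in AMY (median 34.3), a log2 fold change of -2.15 ± 0.28 (FDR = 0.000284), and *PENK* differed by -1.18 ± 0.18 (FDR = 0.000781). Both were higher in PA in 8 of 8 animals, with ranges that overlapped. *CCK*, at 153 to 286 CPM in PA and 61.2 to 154 CPM in AMY, had a log2 fold change of -1.08 ± 0.07 (FDR = 1.58e-06), and *VIPR1*, a receptor of vasoactive intestinal peptide, one of -1.44 ± 0.11. *SST* was higher in AMY in 8 of 8 animals by 0.69 ± 0.14 (FDR = 0.005), under the 2-fold limit.

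Among 22 receptors of monoamines, acetylcholine and cannabinoids, 2 were called higher in AMY and 4 in PA, against 1.22% and 1.97% of all genes. *DRD1*, the D1 dopamine receptor, was at 30.6 to 121 CPM in AMY (median 81.9) and at 12.3 to 26.7 CPM in PA (median 20.2), without overlap (1.94 ± 0.21, FDR = 6.75e-05). PA lay below the neocortex for *DRD1* (-1.48) and AMY above it (0.47). *HTR1B*, an inhibitory serotonin receptor, was higher in AMY by 1.43 ± 0.24. In PA, *HTR4*, a serotonin receptor coupled to cyclic AMP, was at 10.8 to 22.7 CPM against 1.32 to 5.39 CPM in AMY (-2.55 ± 0.17, FDR = 2.65e-06). The adrenergic receptors *ADRB1* (-2.17 ± 0.25) and *ADRA2A* (-1.59 ± 0.15) and the muscarinic receptor *CHRM3* (-1.25 ± 0.13) were higher in PA too. For these 4 PA genes the tissues did not overlap. Among 11 steroid receptors and enzymes, only aromatase (*CYP19A1*) was called, higher in AMY by 1.08 ± 0.23 (FDR = 0.00836), a call lost without animal 4, 8 or 11 (lowest value 0.93). The estrogen receptor *ESR1* had means of 1.28 CPM in AMY and 0.970 CPM in PA (FDR = 0.534).

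In the list of retinoic acid signalling, 2 of 17 genes were called in each direction (1.22% of all genes in AMY and 1.97% in PA). The binding protein *CRABP1* (2.20 ± 0.49, FDR = 0.00961) and the degrading enzyme *CYP26B1* were higher in AMY, whereas the binding protein *CRABP2* (-1.66 ± 0.36) and the synthesizing enzyme *ALDH1A3* (-1.30 ± 0.28) were higher in PA. *CRABP1* was higher in AMY in 7 of 8 animals. *CRABP2* and *ALDH1A3* were higher in PA in 7 of 8. In animals 2, 3 and 7 they were at -0.51 and -0.67, and without animals 3, 8 and 10 at -1.29 and -0.87, where *ALDH1A3* was not called. The part of meningeal tissue in both was not tested. Among 21 interneuron genes, *NPY* was called higher in AMY, and *RELN*, *ADARB2* (-1.58 ± 0.29) and *NDNF* (-1.10 ± 0.15) were called higher in PA. At the FDR alone, 5 genes of this list were higher in AMY (7.05% of all genes) and 3 in PA (7.77% of all genes). Without animal 10, *NDNF* was at -0.98 and not called. Of 19 cadherins, *CDH23*, known from hair cell tip links, was the only one called (1.23 ± 0.16, higher in AMY). Of 17 striatal projection neuron genes, *DRD1* was higher in AMY and *PDYN* and *PENK* higher in PA.

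Glial markers were called in both directions. Of 7 oligodendrocyte markers, 6 were called higher in AMY (among them *MOG*, *MBP*, *ERMN*, *MOBP* and *MYRF*) and none in PA, against 1.22% and 1.97% of all genes, and *CNP* was higher in AMY by 0.77 ± 0.09 (FDR = 9.52e-05). Their summed level was 2854 to 4754 CPM in AMY and 1087 to 2075 CPM in PA, with no overlap and no member under 1 CPM in all libraries of a tissue. *MBP*, the myelin basic protein, was at 1374 to 2967 CPM in AMY and 493 to 987 CPM in PA (1.53 ± 0.10, FDR = 2.65e-06). Against the neocortex, *MBP* was lower in PA (-1.24) and differed by 0.28 in AMY. None of 5 markers of oligodendrocyte precursors were called (median log2 fold change -0.15). The part of myelin content in the differences of other genes was not tested. *GFAP*, the intermediate filament of astrocytes, was at 800 to 2085 CPM in PA (median 1112) and at 279 to 681 CPM in AMY (median 385), without overlap (-1.49 ± 0.10, FDR = 1.78e-06). It was the only one of 7 astrocyte markers called higher in PA (1.97% of all genes): *AQP4* differed by -0.24 ± 0.09 (FDR = 0.0946). With *GFAP* counted, 2 of the 7 were higher in PA at the FDR alone (7.77% of all genes) and 0 in AMY (7.05%). The summed astrocyte markers, *GFAP* among them, were at 2862 to 4196 CPM in AMY and 3744 to 5235 CPM in PA. None of the 10 pan-neuronal markers were called, with 1 higher in PA at the FDR alone (7.77% of all genes). *SNAP25* was at 3776 to 5017 CPM in AMY and 3545 to 4570 CPM in PA (0.06 ± 0.06, FDR = 0.585). *MAP2* was uneven among the AMY libraries, at 236, 362 and 489 CPM in animals 3, 8 and 10 and 1367 to 1802 CPM in the remaining ones. In PA it was at 701 to 1691 CPM.

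**Figure D4:**
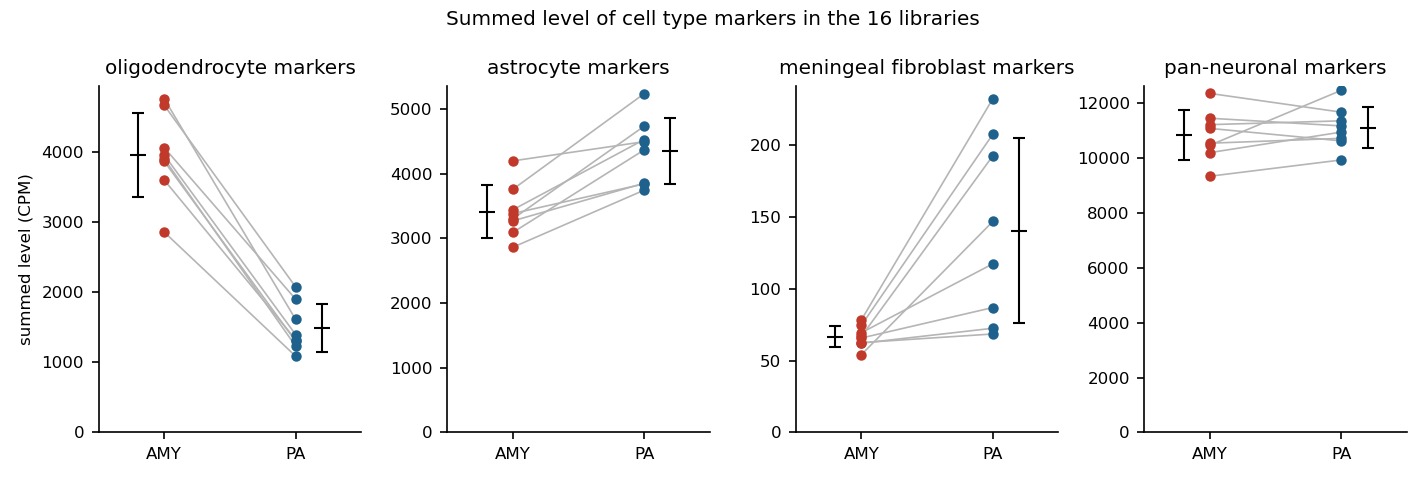
Summed level in CPM (vertical axes, each starting at 0) of 4 marker lists in AMY (red) and PA (blue); points are libraries, grey lines join the libraries of 1 animal, and black bars are mean ± SD of 8. Oligodendrocyte sums do not overlap (2854 to 4754 against 1087 to 2075), and meningeal sums in PA spread from 68.5 to 232.

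Meningeal fibroblast markers, which mark the membrane that covers the cortex, were higher in PA for 4 of 5 tested (*COL1A2*, *LUM*, *COL3A1* and *DCN*), against 1.97% of all genes. The call of *COL3A1* (-1.11) was lost without animal 8, 10 or 11 (-0.93 at the smallest) and that of *DCN* (-1.02) without animal 4, 8, 10 or 11 (-0.92), and both without animals 3, 8 and 10 (-0.83 and -0.89). The summed level of the list was 54.2 to 78.4 CPM in AMY and 68.5 to 232 CPM in PA, and 1 of the 6 members with an identifier was under 1 CPM in all AMY libraries. The PA libraries of animals 4, 6, 8, 10 and 11 held 117 to 232 CPM, and those of animals 2, 3 and 7 held 68.5 to 86.8 CPM, near the AMY range. *COL1A2*, a chain of type I collagen, was at 1.10 to 60.0 CPM in PA (median 15.6) and at 0.0870 to 2.64 CPM in AMY (median 1.63), with a log2 fold change of -3.48 ± 0.57 (FDR = 0.00151). The 6 genes whose paired difference varied most among animals were *COL1A2*, *SLC13A4*, *OGN*, *C7*, *MFAP4* and *MYH11*, of matrix, transport, complement and smooth muscle. *OGN*, *C7*, *MFAP4* and *MYH11* had values of -2.36, -2.60, -1.74 and -2.05, and the call of *MFAP4* was lost without animal 4, 6, 8, 10 or 11 (-1.33 at the smallest). *SLC13A4* was not called (-0.97 ± 0.62, FDR = 0.33). The immediate early genes *FOS* (-1.63 ± 0.30), *FOSL2* (-1.38 ± 0.21) and *NR4A1* (-1.04 ± 0.19) were the 3 called of 10, all higher in PA (1.97% of all genes), with *FOS* at 22.4 to 181 CPM in PA and 6.09 to 52.3 CPM in AMY. The pairs of animals 2, 3 and 7 were also fitted alone. As they were chosen by the meningeal sum in PA, a smaller difference of meningeal genes there follows from the choice. With these 3 animals, 59 of 98 calls among the named genes were lost without a change of direction, and that of *MFAP4* was lost with one. The 3 immediate early genes were at -0.96, -1.63 and -0.58 and not called, and with all 8 animals the call of *NR4A1* was lost without animal 2, 4, 6, 8 or 11. Among the cortical genes, *BCL11A*, *MET*, *NTNG1*, *RELN* and *WFS1* had values of -2.27, -4.04, -3.02, -1.73 and -1.57 in the same 3 animals and were called there, as were *RXFP1* (-2.29), *NR4A2* (-1.46), *APLNR* (-4.13) and *RAB44* (-5.43). *PCP4* (-1.32), *TRPS1* (-1.52), *CUX2* (-1.32), *DMP1* (-2.05) and *DSP* (-0.43, against -1.53 in all 8) were not called there. Yet *TRPS1* and *CUX2* lay further from 0 there than in all 8 animals (-1.25 and -1.10), and *PCP4*, *DMP1* and *DSP* nearer. Over all genes, these 3 pairs gave 41 calls higher in AMY and 42 higher in PA, against 178 and 288 with 8 animals. A lost call there therefore cannot be told apart from the smaller number of animals. The part of meningeal tissue in these differences was not tested.

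Markers of other cell types that the blocks could hold were counted too. None of 3 microglial, 6 endothelial, 3 choroid plexus and 5 ependymal markers were called, nor was the 1 blood marker tested, where 3.19% of all genes were called. At the FDR alone, 2 microglial markers and 1 endothelial marker were higher in PA (7.77% of all genes). At the same limit, 2 ependymal markers were higher in AMY (7.05% of all genes). Choroid plexus markers summed to 11.6 to 41.9 CPM in AMY and 13.99 to 32.4 CPM in PA, and endothelial markers to 59.0 to 98.0 and 62.5 to 154 CPM. No cholinergic neuron marker passed the filter on low counts, with sums of 0.239 to 1.06 CPM in AMY and 0.283 to 2.06 CPM in PA. Of 3 hippocampal granule cell markers, *DSP* was called higher in PA.

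Among the called genes with the highest levels, *PTER* and *ZCCHC12* stood beside *MBP* in AMY, and *SORL1* and *ADCY1* beside *GFAP* and *WFS1* in PA. *PTER*, a phosphotriesterase-related hydrolase, was at 626 to 1523 CPM in AMY (median 953) and at 212 to 588 CPM in PA (median 495), a log2 fold change of 1.24 ± 0.16 (FDR = 0.00032). *ZCCHC12*, a zinc-finger coactivator, differed by 1.36 ± 0.16 (FDR = 0.00016). *SORL1*, the sorting receptor of amyloid precursor protein, was at 301 to 625 CPM in PA (median 396) and at 123 to 150 CPM in AMY (median 132), without overlap (-1.59 ± 0.09, FDR = 1.04e-06). AMY was last of 51 sub-regions for *SORL1*, and the neocortical sub-regions lay between 379 and 654 CPM. *ADCY1*, a calmodulin-stimulated adenylyl cyclase, differed by -1.28 ± 0.28 (FDR = 0.0101) with wide ranges in both tissues, and was at -0.85 and not called without animals 3, 8 and 10.

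To place these differences, AMY and PA were each set against the sum of 31 neocortical sub-regions of the same animal. AMY differed from neocortex in 1219 of 15047 genes (8.10%) and PA in 1150 (7.64%). These comparisons share their AMY and PA samples with the main one, so values are given side by side. For *FEZF2*, *DCSTAMP* and *CYP26B1*, AMY stood above neocortex (2.51, 5.26 and 2.58) and PA was not called (-0.15, -0.67 and 0.49). For *NR2F2*, *PTGER3*, *LHX9* and *BHLHE22*, both were above it, AMY by 3.00, 4.08, 3.07 and 2.25 and PA by 2.00, 2.07, 1.81 and 1.23. Among genes higher in PA, *SFN*, *BMP3* and *RAB44* were above neocortex in PA alone (4.42, 2.86 and 3.80). *BCL11A* and *SEC16B* were below it in AMY alone (-2.50 and -3.42). *MET*, *RXFP1*, *CUX2* and *CHRM3* were below it in both tissues, and more so in AMY (-5.07, -3.88, -2.28 and -2.39 against -1.62, -1.48, -1.19 and -1.14). *APLNR* was above neocortex in PA (2.37) and below it in AMY (-3.40).

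**Figure D5:**
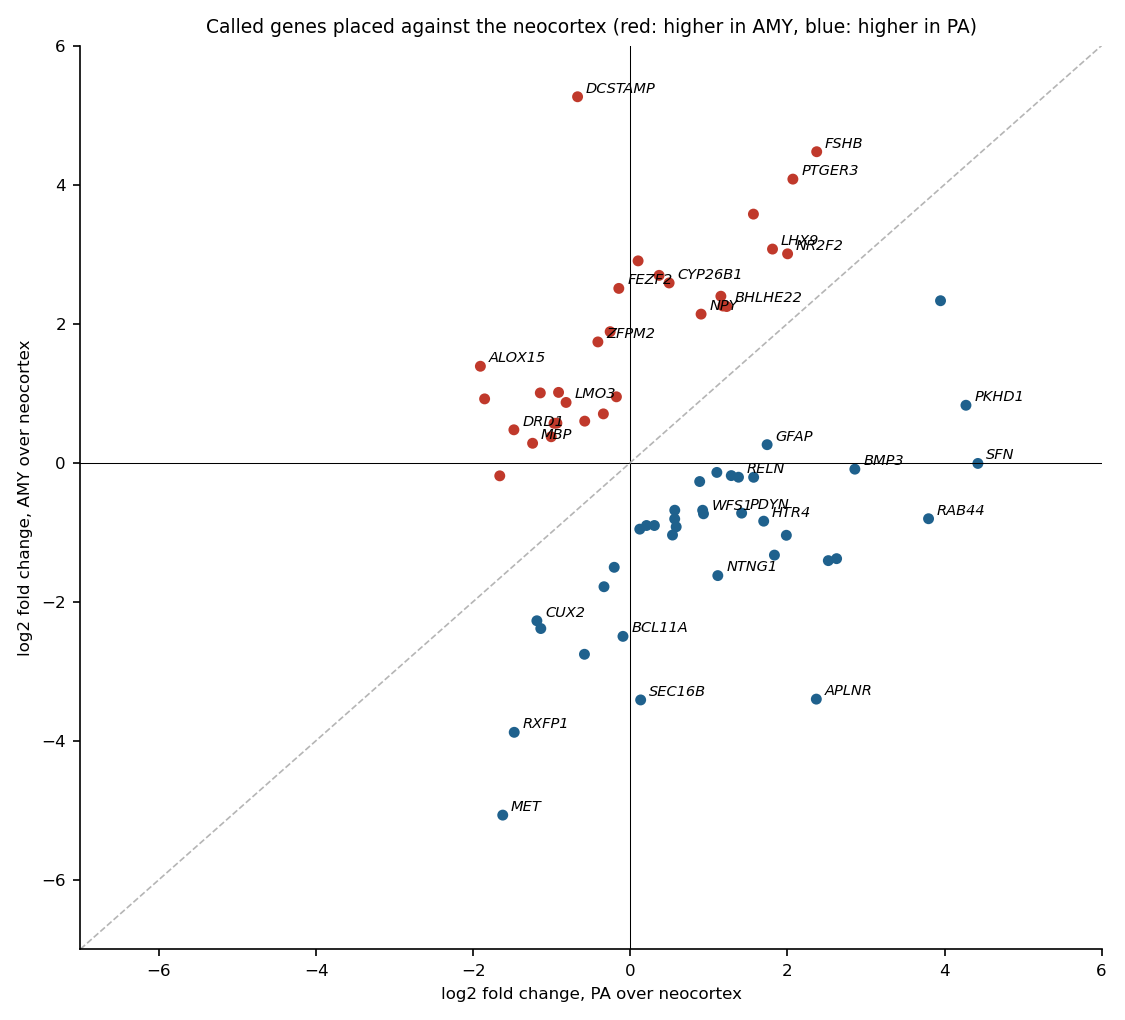
Log2 fold change of AMY over neocortex (vertical axis) against that of PA over neocortex (horizontal axis) for 67 of the named genes called between AMY and PA, 30 higher in AMY (red) and 37 higher in PA (blue); the dashed line marks equal values, so that distance from it is the AMY against PA difference by construction. *DCSTAMP* lies high near the vertical axis (5.26), *SFN* lies far right near the horizontal axis (4.42), and *MET* lies low in both.

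The within-animal difference between AMY and PA was then compared between mid-aged and young and between female and male animals, 4 against 4. With edgeR, no gene was called for age stage (712 genes at an unadjusted p under 0.05, 4.88% of those tested), and none for sex (606 genes, 4.15%). The 4 genes with the smallest p for age stage were *VAV3*, *BHLHE22*, *C12H2orf88* and *MEPE*, with changes of the AMY minus PA difference of -1.003 ± 0.21, 0.95 ± 0.20, 0.86 ± 0.18 and 1.86 ± 0.40 on the log2 scale in mid-aged over young animals (FDR = 0.92 for each). Those for sex were *SPHKAP* (0.76 ± 0.12, female over male, FDR = 0.676), *TTYH2* (-0.59 ± 0.12), *DAAM2* (-0.57 ± 0.13) and *DNAH7* (1.22 ± 0.28), the last 3 at an FDR of 0.888. With DESeq2, 1 gene was called in each: *MEPE*, an acidic matrix phosphoglycoprotein, for age stage (1.85 ± 0.35, adjusted p = 0.0028) and *TAGLN*, a protein of smooth muscle, for sex (-1.75 ± 0.37, adjusted p = 0.0159). *MEPE* was at 47.98 to 179 CPM in AMY and at 18.8 to 161 CPM in PA. The 4 female PA libraries held 117 to 207 CPM of meningeal fibroblast markers, and the male ones 68.5, 72.5, 86.8 and 232 CPM. The part of meningeal tissue in the difference of *TAGLN* between the sexes was not tested.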

How the data were processed

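Per the labels and the methods of the study, ribosome-depleted, strand-marked libraries were sequenced, trimmed where read quality was poor (Trim Galore 0.4.4), aligned to Mmul 8.0.1 (HISAT2 2.0.5) and counted over Ensembl genes (HTSeq 0.6.1); the deposited values are raw counts per gene (30807 genes). How HTSeq treated strand and ambiguous reads is not given in the sources used here, so genes that overlap, lie antisense or have near copies are uncertain. Symbols came from a gene name table of a later release, which matched 17572 IDs.

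Counts were fitted with edgeR 4.0.16 (TMM, filterByExpr, quasi-likelihood test, animal as block, Benjamini-Hochberg adjustment). SE is the absolute log2 fold change divided by the square root of *F*. A gene was called at FDR under 0.05 and absolute log2 fold change above 1. Same-numbered samples come from the same animal, which pairs them; the correlation of their deviations from the tissue means was -0.03 to 0.65. Interactions with age stage and sex used the same 16 samples, and the neocortical comparison 24 summed profiles. In simulated counts, 200 of 200 genes changed 4-fold were recovered for AMY against PA with 1 other call (14522 genes). For the interaction with age stage, 189 of 200 were recovered with 4 other calls. Smaller changes were not simulated.

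Genes named are DCSTAMP and PTGER3, the 12 largest differences each way that held in 8 of 8 animals with a mean of at least 1 CPM, called and highest-level members of 27 lists (373 of 460 listed genes matched an ID), the 6 most variable paired differences at a mean of at least 5 CPM, the 4 called genes of highest level each way and the 4 smallest p of each interaction. GAD1, GAD2, SLC17A6, TBR1, FOXP2, CRH, ESR1, the gene without a symbol and the genes of the closing observations were chosen after their values were seen. Some genes that the rule names are not reported here. Members and lists were chosen with earlier results of these data known. Fits of the pairs of animals 2, 3 and 7 alone (PA libraries with a meningeal marker sum of at most 100 CPM) and without animals 3, 8 and 10 were alternatives chosen after seeing the data. The other alternatives were DESeq2 1.42.0, its size factors, other filters, no block, stricter thresholds, a fit of all RNA samples and leaving out each animal. The assembled transcripts and the chromatin samples were not used here. Depth limits low genes: 3 counts in a library correspond to 0.271 CPM in PA and 0.292 CPM in AMY on average.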

Additional observations from a re-analysis of the deposited data

Results flagged for a closer look

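Paired AMY minus PA differences in log2(CPM + 1) of the named genes, and the summed cell type markers, were searched for 1 animal that stood apart from the other 7. Of 136 such sets of 8 values, 12 had a gap to the nearest other animal that, as a share of the whole range, was above Dixon's 95% critical value for 8 values. Chance flags about 1 in 20 sets. Among genes higher in AMY, *FEZF2* stood at 1.48 in animal 7 (2.33 to 3.09 in the others), *PTER* at 2.36 in animal 11 (0.75 to 1.51) and *KCTD4* at 2.56 in animal 11 (0.86 to 1.53). Among genes higher in PA, *RAB44* stood at -3.53 in animal 11 (-2.52 to -1.85), *FMOD* at -1.64 in animal 2 (-2.74 to -2.23), *SEC16B* at -0.65 in animal 3 (-2.70 to -1.76), *NTNG1* at -1.05 in animal 8 (-3.29 to -2.47), *TRPS1* at -2.38 in animal 3 (-1.25 to -0.62) and *GFAP* at -0.80 in animal 4 (-1.79 to -1.43). In each of these 9 genes the animal that stood apart had the same direction as the others. For *FEZF2*, *RAB44*, *FMOD* and *SEC16B* this was fixed in advance, as they were named for the same direction in 8 of 8 animals. Among genes not called, *GAD2* stood at -0.78 in animal 3 (-0.23 to 0.21), *SNAP25* at -0.22 in animal 4 (0.04 to 0.27) and *AQP4* at 0.43 in animal 11 (-0.39 to -0.18), the last 2 against the direction of the other 7 animals. Animals 3 and 8 are among the 3 whose AMY libraries correlated least with the other AMY libraries. Animal 10, also among these 3, was not flagged, whereas animals 2, 4, 7 and 11 were.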

How the results depend on the processing

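Of the 98 named genes called between AMY and PA, 85 lost their call in no fit that left out 1 animal, and 36 in no other setting. *Srpx2* is counted in both, but it was tested in only 7 fits of each kind and not in animals 2, 3 and 7 alone. Of the calls, 59 were lost without a change of direction with animals 2, 3 and 7 alone. The call of *MFAP4* was lost there as well, with a change of direction. Without animals 3, 8 and 10, 9 calls were lost, and with all RNA samples in the fit 2 were (*NR2F2* and *BHLHE22*). No call was lost with DESeq2, with its size factors or without the filter on low counts, and 1 was lost with the detection rule of the study as filter (*NR2F2*). With no replicate block, 166 genes were called higher in AMY and 262 higher in PA, and *BHLHE22*, *NR2F2*, *LUM* and *ADCY1* were lost. Leaving out 1 animal gave 157 to 181 genes in AMY and 245 to 314 in PA, and 0 to 0 for both interactions. Against neocortex it gave 595 to 622 genes higher in AMY and 601 to 658 lower, and 663 to 696 higher in PA and 466 to 508 lower. The pairs of animals 2, 3 and 7 alone gave 41 and 42 genes with 3 animals left. There *MFAP4* was at 0.35 and *SLC13A4* at 1.45, against the direction in all 8 animals. A threshold of log2 fold change above 2 gave 19 and 63. With all RNA samples of the table in the fit, 301 genes were higher in AMY than in PA (the cause was not tested), 1094 higher in AMY than in neocortex and 1181 higher in PA than in neocortex. Without the filter on low counts the neocortical counts were 1169 and 1070 for AMY and 1175 and 834 for PA. With the detection rule they were 1154 and 1132, and 1162 and 903. For age stage DESeq2 called 1 gene. For sex DESeq2, no filter and the detection rule called 1 gene each, the last 2 the same gene without a symbol, and the fit without animals 3, 8 and 10 called 2, *TAGLN* (-1.97) and *ACTA2* (-2.68). A few genes that were not called changed sign near 0. Without 1 animal at a time, *GAD2* lay between -0.095 and 0.042 and *TBR1* between -0.19 and 0.018. Without animals 3, 8 and 10 they were at 0.026 and 0.20. In animals 2, 3 and 7, *TBR1* was at 0.0087 and *FOXP2* at -0.18.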

Other observations

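AMY had the highest mean of the 51 sub-regions for 18 of the 178 genes called higher in AMY (10.1%) and for 313 of the 14591 genes tested (2.15%). PA was first for 23 of the 288 genes called higher in PA (7.99%) and for 162 of all genes tested (1.11%). As the genes were called from the same libraries, these shares are a description. *PTH2R*, a receptor of parathyroid hormone and of the peptide TIP39, was at 10.7 to 22.9 CPM in AMY (median 15.9) and at 1.91 to 7.56 CPM in PA (median 4.32), with a log2 fold change of 1.89 ± 0.16 (FDR = 1.19e-05). The hypothalamus came next, at 7.61 CPM. *GLRA2*, a subunit of the glycine receptor, was at 107 to 236 CPM in AMY and 38.8 to 88.1 CPM in PA (1.33 ± 0.17, FDR = 0.000257), and the hypothalamus was again next, at 84.7 CPM. *KCTD4*, a protein with a BTB domain, was at 262 to 380 CPM in AMY and 57.4 to 160 CPM in PA (1.40 ± 0.15, FDR = 8.52e-05), while the dentate gyrus reached 159 CPM. No library of one tissue overlapped with the other for these 3 genes, nor for *FILIP1L* (1.73 ± 0.20) and *XG* (1.72 ± 0.18), for which AMY was first too.

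Among the genes with PA first, *HGF*, the ligand of the receptor encoded by *MET*, was at 11.1 to 28.1 CPM in PA (median 21.5) and at 4.14 to 8.91 CPM in AMY (median 7.18), without overlap (-1.44 ± 0.17, FDR = 0.00018). *WNT7B*, a Wnt ligand, was at 10.5 to 21.4 CPM in PA and 2.75 to 6.26 CPM in AMY (-1.85 ± 0.14, FDR = 4.81e-06), and the temporal polar gyrus came next at 12.7 CPM. *AOX1*, an aldehyde oxidase that can oxidize retinaldehyde, was at 9.95 to 24.2 CPM in PA and 0.955 to 4.21 CPM in AMY (-2.90 ± 0.27, FDR = 2.71e-05), close to CA1 at 18.4 CPM. *OTOGL* (-2.76 ± 0.28), *SLC27A6*, a fatty acid transporter (-1.88 ± 0.18), and *DCBLD1* (-1.17 ± 0.12) did not overlap between the tissues either. The axon guidance receptor *UNC5D* (-2.12 ± 0.34) and the teneurin *TENM3* (-1.07 ± 0.15) were higher in PA in 8 of 8 animals with overlapping ranges. The call of *TENM3* was lost without animal 3 or 6 (-0.98 in both) and without animals 3, 8 and 10 (-0.96), and that of *DCBLD1* without these 3 animals (-0.95). These genes were chosen after their values were seen.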
